A study of Mus musculus with 6 samples.

Results

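Type 2 conventional dendritic cells (cDC2) of the lung were described in single-cell RNA libraries of AML-infiltrated and normal mouse lung. A cell was taken as a cDC2 by a rule on its UMIs, the unique molecular identifiers that each count 1 captured RNA molecule. It had to carry at least 2 of the 4 markers Cd209a, Mgl2, Clec10a and Flt3 and at least 3 UMIs summed over the MHC class II genes H2-Ab1, H2-Aa and Cd74. It had to have 0 UMIs of Xcr1, Clec9a and Siglech, which mark type 1 conventional and plasmacytoid dendritic cells. Cells with more than 1 UMI summed over Ccl22, Fscn1 and Ccr7, the genes of mature dendritic cells, were left out. So were cells with more than 1 UMI over Cd79a, Cd3e, Ncr1, Plet1 and Retnlg, or with more than 2 over the complement genes C1qa, C1qb and C1qc. The rule found 455 members among 71634 kept cells.

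Conventional dendritic cells take up antigen, process it and show it to T cells on MHC molecules. The type 2 branch presents on MHC class II, mostly to CD4+ T cells, and its development needs the transcription factor Irf4 and the growth factor receptor Flt3. In the lung it shares much of its surface with cells of monocyte origin, and the border between cDC2 and monocyte-derived cells is drawn in part by Zbtb46, a transcription factor of conventional dendritic cells, and by Fc receptors and Ly6c2 on the monocyte side.

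The tested lungs were AML lung, infiltrated by acute myeloid leukaemia, a cancer of myeloid precursors, and were set against normal lung, with 3 libraries each. All lungs were perfused and digested with collagenase and DNase, and their leukocytes were enriched on beads against CD45 before 10x Genomics 3' libraries were made. The labels give neither the leukaemia model, nor the strain, age or any allele or agent of either group, nor which cells are leukaemic. Whether each library is another animal is not said either, and the p-values below therefore speak of the spread among these libraries, part of which may be technical.

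The 6 libraries held 73095 barcodes and between 43913245 and 66513826 UMIs each. Depth per cell was uneven, and AML lung replicate 3 stood apart with 35229 kept cells at a median of 1068 UMIs, against medians of 2811 to 10757 in the other libraries. No member barcode occurred in more than 1 library, and 493 of the 72601 distinct barcodes did among all cells. Scrublet, a doublet caller, marked 3 of the 455 members, which were kept. Its own threshold marked 0% of cells in 3 libraries, so the median threshold of the other 3 was used there.

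AML lung replicates 1, 2 and 3 gave 27, 44 and 224 members, and normal lung replicates 1, 2 and 3 gave 20, 32 and 108. The members were deeper than the average cell of their library. Their median depth was 17662, 10590.5 and 1877.5 UMIs in AML lung and 17323, 12878.5 and 6728.5 UMIs in normal lung. Most stood close to the marker threshold, since 300 members carried 2 of the 4 markers, 120 carried 3 and 35 carried all 4. On the other side of that threshold, 847 cells met every other condition with 1 marker. The MHC class II threshold was rarely close, with 13 members at 3 to 5 UMIs and 75 cells that carried 2 or more markers but fell short of 3 UMIs. A further 261 cells failed only through a UMI of the type 1 or plasmacytoid genes. The commonest pair of markers was Cd209a, a C-type lectin of dendritic cells, with Mgl2, a galactose-binding lectin, in 109 members (24.0%) with no further marker.

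The levels of the rule genes chose the members and are given without a test. Levels are in CPM, the UMIs of a gene scaled to the UMIs summed over the members of a library. Mgl2 stood at 752, 570.5 and 647 CPM in the AML libraries and 136, 673 and 758 CPM in the normal libraries, so normal lung replicate 1 was low. Cd209a stood at 471, 332.5 and 670.3 CPM in AML lung, against 467, 706.5 and 733 CPM in normal lung. Flt3, the receptor for the dendritic cell growth factor Flt3 ligand, stood at 176, 164 and 283.5 CPM in the AML libraries and 263, 226 and 287 CPM in the normal libraries. Clec10a, another galactose-binding lectin, stood at 65.6, 67.7 and 197 CPM in AML lung, against 117, 190.3 and 144 CPM in normal lung. The groups overlapped for all 4. The class II invariant chain Cd74 reached 14790 to 16840 CPM in every library except normal lung replicate 1, at 8508 CPM.

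The label was checked on genes that the rule did not use. Zbtb46 stood at 178, 125 and 88.1 CPM in the AML members and 38, 47.6 and 111 CPM in the normal members. In classical monocytes, chosen by UMIs of Ly6c2, Ccr2 and Lyz2, it lay between 0.768 and 2.75 CPM over the 6 libraries. A Zbtb46 UMI was found in 66.7%, 47.7% and 17.9% of AML members (exact binomial 95% intervals 46.0% to 83.5%, 32.5% to 63.3% and 13.1% to 23.5%). The share was 35.0%, 28.1% and 40.7% of normal members (15.4% to 59.2%, 13.8% to 46.8% and 31.4% to 50.6%). It was 0.761% to 2.85% of B cells, which serve here as the level that free RNA can give, at median depths of 1333 to 7495.5 UMIs. These intervals cover counting error only. Itgax, the CD11c integrin, stood at 188.5, 144 and 99.6 CPM in AML members and 35.3, 112 and 164 CPM in normal members, above the 12.02 to 28.96 CPM of classical monocytes. Cbfa2t3, a transcriptional corepressor, stood at 429 to 598 CPM in AML members and 385 to 449 CPM in normal members, and at 121 to 245 CPM in classical monocytes. Irf4 gave no contrast with B cells, which carry it themselves. Cd24a had a UMI in 16.07% to 48.15% of members, against 20.04% to 53.29% of B cells. Its share was lower in members than in B cells in 6 of 6 libraries. It stood at 36.94 to 102.3 CPM in members, above the 4.886 to 32.62 CPM of classical monocytes. Kmo stood at 53.63 to 189.3 CPM in members and 3.958 to 7.024 CPM in classical monocytes, but B cells overlapped at 36.39 to 113.8 CPM. Sirpa, an inhibitory receptor of myeloid cells, Itgam, the CD11b integrin, and Klf4, a transcription factor that cDC2 and monocytes share, were lower in members than in classical monocytes in 6 of 6 libraries. Monocyte genes were also present in members. In normal lung replicate 1, members reached or passed the classical monocytes of that library in F13a1 (1045 against 1010 CPM), Ccr2 (787 against 749 CPM) and Apoe (1159 against 1080 CPM).

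The monocyte genes were uneven between members with and without Mgl2, a split made after the values were seen and given without a test. Members with an Mgl2 UMI made up 55.6%, 54.5% and 56.7% of members in AML lung and 15.0%, 46.9% and 57.4% in normal lung. Normal lung replicate 1 was low, with 3 of 20 members, and the groups overlapped. A cell can express Mgl2 and lack a UMI of it, so the split is not one of cell types. Ly6c2 or the Fc receptor Fcgr1, monocyte genes, had a UMI in 26.7%, 8.33% and 6.30% of AML members with Mgl2, against 33.3%, 40.0% and 12.9% of normal members with Mgl2. Among members without Mgl2 the shares were 75.0%, 65.0% and 18.6% in AML lung, against 76.5%, 82.4% and 43.5% in normal lung. They were lowest in replicate 3 of each group, whose members were the shallowest, and the groups overlapped on both sides of the split.

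**Figure D1:**
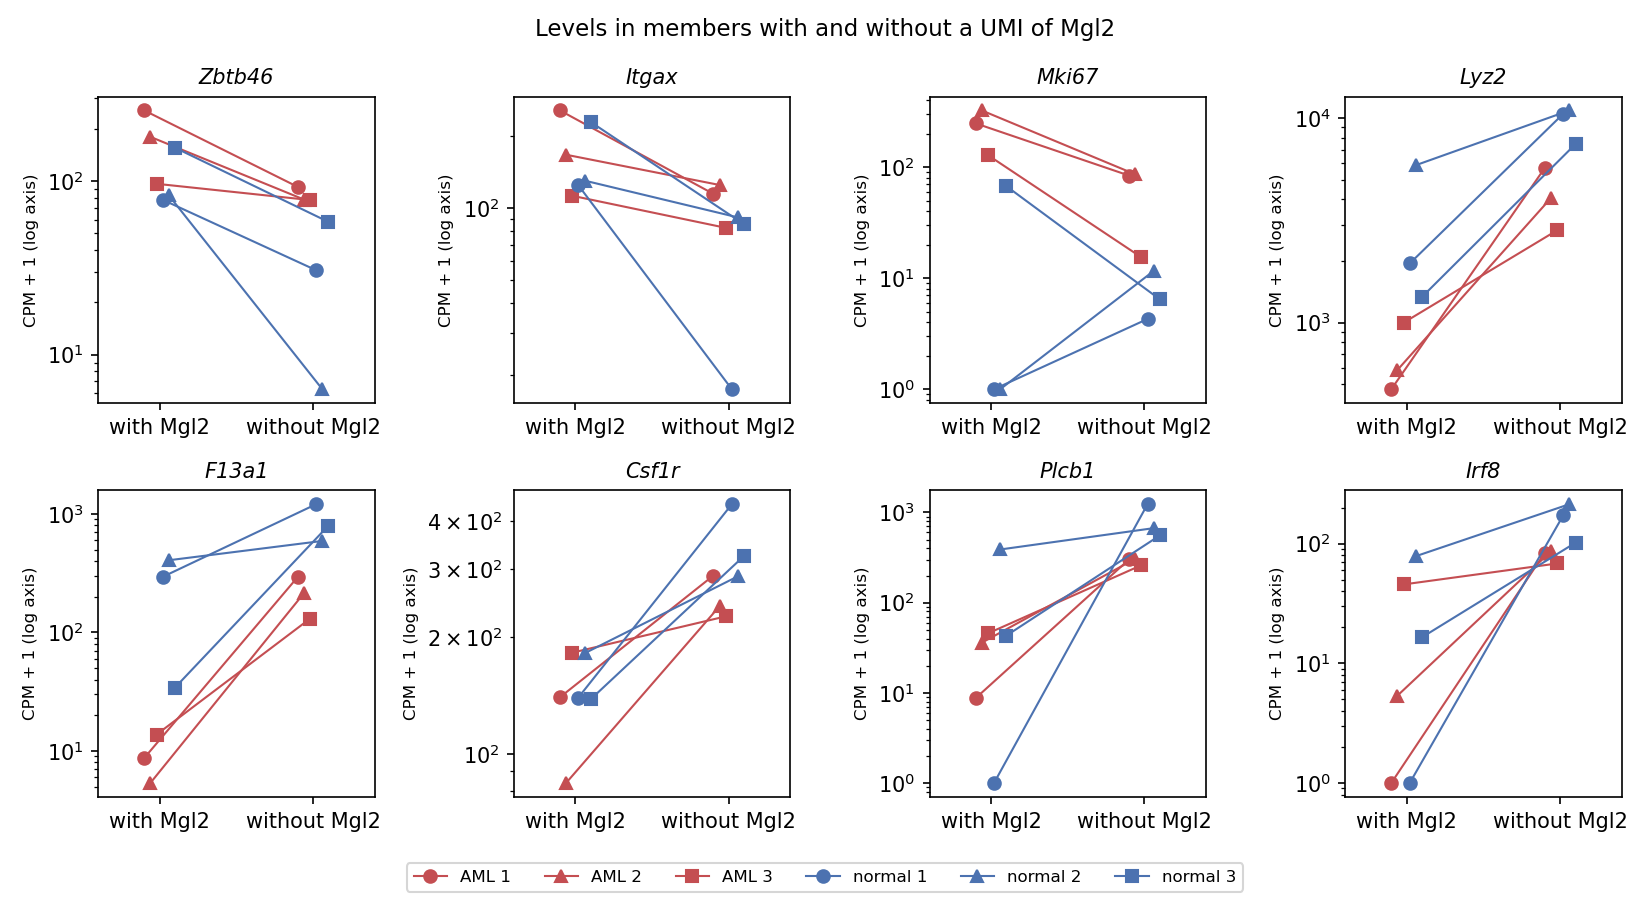
Levels of 8 genes (CPM + 1, log axis) in members with and without an Mgl2 UMI, with a line for each of the 6 libraries (red AML lung, blue normal lung). Zbtb46 and Itgax were higher with Mgl2 in 6 of 6 libraries, and Lyz2, F13a1, Csf1r, Plcb1 and Irf8 were lower in 6 of 6.

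Zbtb46 and Lyz2 stood in opposite orders across the Mgl2 split in every library. Zbtb46 stood at 255, 179 and 95.6 CPM in AML members with Mgl2, and at 77.1, 81.8 and 155 CPM in normal members with Mgl2. Without Mgl2 it stood at 91.7, 77.4 and 76.8 CPM in AML lung, and at 29.6, 5.31 and 57.2 CPM in normal lung. Lyz2, the lysozyme of myeloid cells, was lower with Mgl2. It stood at 471, 585.5 and 997 CPM with Mgl2 in AML lung and 1943, 5876 and 1333 CPM with Mgl2 in normal lung. Without Mgl2 it reached 5698, 4060 and 2823 CPM in the AML libraries and 10480, 10880 and 7456 CPM in the normal libraries, against 13220 to 15880 CPM in normal classical monocytes. Irf8, the transcription factor of type 1 dendritic cells and monocytes, lay at or below 44.6 CPM with Mgl2 in AML lung and at or below 77.5 CPM in normal lung. Without Mgl2 it lay between 67.2 and 85.1 CPM in AML lung and between 101 and 212.5 CPM in normal lung. The receptor gene Csf1r and the T cell and progenitor gene Cd7 were lower with Mgl2 in 6 of 6 libraries as well, and Cd7 was at 0 in 4 of them. Other genes were not ordered alike, since Ly6c2 was higher with Mgl2 in normal lung replicate 2 and lower in the other 5 libraries, and Mki67 was higher with Mgl2 in 4 of 6 libraries.

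Members made up 0.595%, 0.339% and 0.636% of kept cells in AML lung and 0.565%, 0.581% and 1.10% in normal lung. Normal lung replicate 3 was the highest and AML lung replicate 2 the lowest, and the other 4 libraries lay close together. The mean was 0.523% ± 0.161 in AML lung, against 0.748% ± 0.302 in normal lung (SD, 3 libraries each), a difference of -0.224 percentage points that was not larger than the spread between libraries (exact two-sided permutation test, p = 0.6, smallest possible p 0.1). With each cell of at least 1000 UMIs thinned to that depth, the means were 0.269% ± 0.173 and 0.368% ± 0.300 for AML and normal lung (p = 0.7, exact permutation). Shallower cells were left out there, 16042 of the 35229 kept cells of AML lung replicate 3 and at most 2150 of any other library. Another denominator was cDC2, type 1 conventional and mature dendritic cells together, each chosen by a rule, without plasmacytoid dendritic cells. Of these, cDC2 made up 46.0% ± 6.47 in AML lung, against 37.1% ± 7.53 in normal lung (p = 0.3, exact permutation), so the direction depended on the denominator. Without nonclassical monocytes in the total the means were 0.761% in AML lung, against 0.783% in normal lung (p = 0.9, exact permutation). Shares sum to a whole and depend on the CD45 enrichment.

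**Figure D2:**
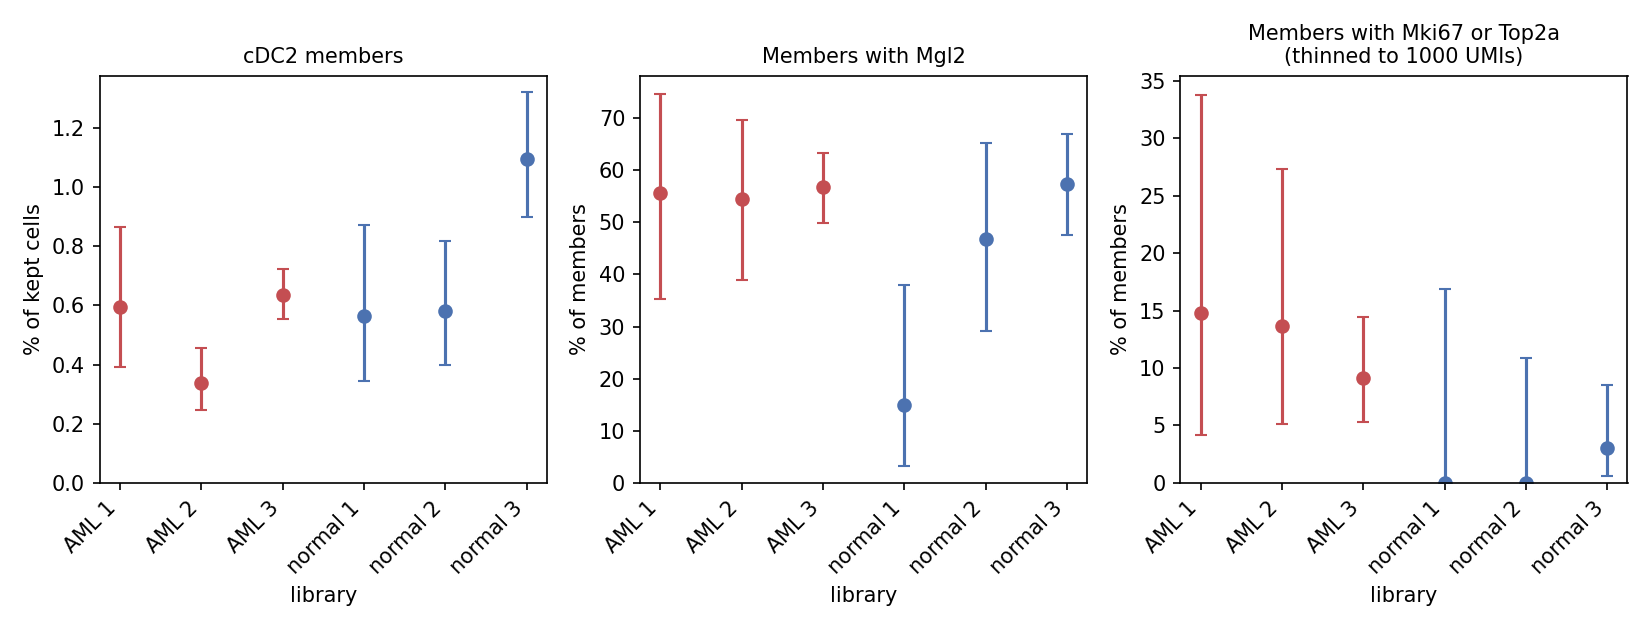
Share of kept cells that are cDC2 members, share of members with an Mgl2 UMI, and share of members with a UMI of Mki67 or Top2a after thinning to 1000 UMIs, per library (points, with exact binomial 95% intervals; red AML lung, blue normal lung). The first 2 shares overlap between groups, and the third lies at 9.14% to 14.8% in AML lung and at 0% to 3.0% in normal lung.

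To compare gene levels, UMIs were summed over the members of each library and tested with edgeR's quasi-likelihood test across 6196 genes. No gene passed an adjusted p of 0.05 (0.0% called). At an unadjusted p of 0.05 there were 546 genes (8.81%), 254 higher in AML lung (4.10%) and 292 lower (4.71%), and DESeq2 called 23 genes at its adjusted p of 0.05, 9 higher (0.145%) and 14 lower (0.226%). The 3 AML libraries lay above the 3 normal libraries for 497 genes (8.02%) and below them for 455 (7.34%). In simulated counts of this design, run on 5945 genes, the test found 34% of true 2-fold and 91% of true 4-fold changes. It also made 11 false calls. The simulation gave every gene the same dispersion and changed only genes above a count minimum, so these shares may not hold for the real counts. The sizes given for single genes are estimates that did not pass the edgeR test. In such sums, fewer cells of a kind and less RNA per cell cannot be told apart.

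The proliferation list had the largest share of genes higher without overlap among the 21 lists. Of 16 genes of the cell cycle list 10 were expressed enough to test, all 10 had a log2 fold change above 0 (50.7% of all tested genes did), and 6 lay higher in AML lung without overlap, against 8.02% of all genes. Their median log2 fold change was 2.44, against 0.01 over all tested genes. The count depended on the set of cells. It was 5 of 10 in members with 3 or 4 markers and in members without Mgl2, against 5.75% and 8.94% of all genes. In members with Mgl2, which leaves 5 libraries, it was 6 of 10, against 10.47% of all genes. It was 1 of 10 in members with Flt3, in members without monocyte marker UMIs and at 1000 UMIs per cell, and 3 of 10 with equal numbers of members, against 8.28%, 9.83%, 5.54% and 6.29% of all genes in those settings. The filter on low counts keeps genes that are high in at least 1 group, so the 6 untested genes belong beside these counts. Ccnb1, Cdk1, Mcm5, Mcm6, Tyms and Rrm2 were at or below 26.7 CPM in AML lung and at or below 14.7 CPM in normal lung.

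Mki67, the nuclear antigen of cycling cells, at chr7:135689784-135716361 of GRCm38 (minus strand), stood at 170.1, 197 and 82.4 CPM in AML lung, against 2.71, 4.76 and 39.1 CPM in normal lung. All AML libraries lay above all normal ones, and normal lung replicate 3 was the nearest. The group means were 149.8 ± 59.95 CPM for AML lung, against 15.5 ± 20.4 CPM for normal lung (SD, 3 libraries each), with a log2 fold change of 2.93 (SE 0.62, edgeR adjusted p = 0.209). Ube2c, the ubiquitin-conjugating enzyme of the anaphase-promoting complex, stood at 164, 69.8 and 88.1 CPM in the AML libraries and 0, 0 and 19.5 CPM in the normal libraries, where normal lung replicate 3 held all 16 UMIs. Its log2 fold change was 3.51 (SE 0.71, edgeR adjusted p = 0.209). Ccnb2, a cyclin that drives mitosis, stood at 49.2, 24.6 and 21.1 CPM in AML lung, against 0, 4.76 and 6.11 CPM in normal lung. Top2a, the topoisomerase that untangles replicated DNA, Birc5, a survivin of the mitotic spindle, and Tubb5, a tubulin, also did not overlap, with log2 fold changes of 2.52, 2.35 and 1.44 (edgeR adjusted p = 0.283, 0.283 and 0.222). Stmn1, Hmgb2, Pcna and Mcm3 overlapped between groups. DESeq2 called Tubb5 (adjusted p = 0.0110) and Birc5 (adjusted p = 0.0496), and also Cenpf, a kinetochore protein outside the list named here after its value was seen (adjusted p = 0.00843).

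**Figure D3:**
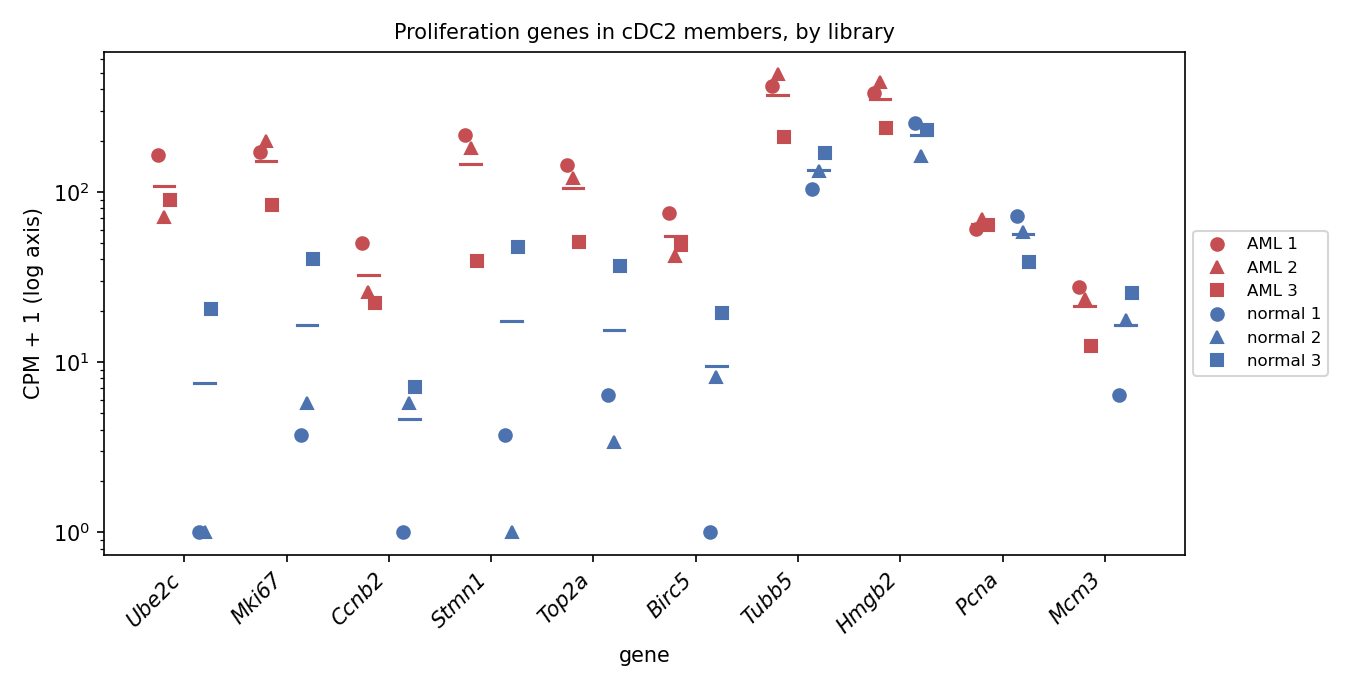
CPM + 1 on a log axis of the 10 tested proliferation genes in cDC2 members, by library (red AML lung, blue normal lung; horizontal lines are group means). Ube2c, Mki67, Ccnb2, Top2a, Birc5 and Tubb5 are separated, and AML lung replicate 3 and normal lung replicate 3 are the nearest libraries of the 2 groups for Mki67 and Top2a.

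The size depended on normal lung replicate 3. Without it the log2 fold change of Mki67 was 5.21, and it passed edgeR's adjusted p of 0.05. Ube2c, with 0 UMIs in the other normal libraries, passed it as well. Without AML lung replicate 3 the log2 fold changes were 3.20 for Mki67 and 3.62 for Ube2c, and the list had 8 of 10 genes without overlap, against 15.2% of all genes without that library. Counted per cell, a UMI of Mki67 or Top2a was present in 29.6%, 29.5% and 12.1% of AML members and 15.0%, 6.25% and 10.2% of normal members, where depth differs. These unthinned shares overlapped between groups, at 23.7% ± 10.1 in AML lung, against 10.5% ± 4.38 in normal lung (p = 0.2, exact permutation). In members thinned to 1000 UMIs such a UMI was present in 4 of 27, 6 of 44 and 16 of 175 in AML lung, and in 0 of 20, 0 of 32 and 3 of 100 in normal lung. The thinning left out 49 shallower members of AML lung replicate 3 and 8 of normal lung replicate 3. The thinned shares averaged 12.5% ± 2.99 in AML lung, against 1.0% ± 1.73 in normal lung (SD, 3 libraries each), without overlap, at the smallest p the exact permutation test allows (p = 0.1). At a floor of 3 counts, the 2 counts of 0 in normal lung allow shares of cells with a UMI of up to 15.0% and 9.38%, which says nothing of cells that express the genes without a UMI. In B cells the unthinned share was 3.59% to 6.86% in AML lung, against 4.07% to 6.996% in normal lung. No cell cycle phase is read from these UMIs.

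Split on Mgl2, a UMI of Mki67 or Top2a was found in 5 of 15, 11 of 24 and 23 of 127 AML members with Mgl2, against 0 of 3, 0 of 15 and 9 of 62 normal members with Mgl2, where the counts of 0 rest on few cells. Among members without Mgl2 it was found in 25.0%, 10.0% and 4.12% in AML lung, against 17.65%, 11.8% and 4.35% in normal lung, where the groups overlapped. Mki67 reached 247, 323 and 127 CPM in AML members with Mgl2, against 0, 0 and 66.4 CPM in normal members with Mgl2. The level in normal lung replicate 1 rests on 3 members. Without Mgl2, Mki67 stood at 83.0, 85.1 and 14.4 CPM in AML lung, against 3.29, 10.6 and 5.45 CPM in normal lung. Top2a stood there at 148, 34.8 and 9.60 CPM in the AML libraries and 6.59, 5.31 and 2.72 CPM in the normal libraries. By CPM, the groups therefore did not overlap for Mki67 or Top2a without Mgl2 either, but AML lung replicate 3 was separated only narrowly. Its members without Mgl2 summed to 208255 UMIs, so both of its levels rest on few UMIs. Its Top2a lay under the 12.5 CPM of B cells of that library and is read as background there.

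The same genes were then read in other classes of the same libraries. In classical monocytes, Mki67 stood at 53.4, 58.0 and 39.6 CPM in the AML libraries and 4.09, 4.18 and 6.41 CPM in the normal libraries. There it rose by 3.36 on the log2 scale (SE 0.24, edgeR adjusted p = 0.000604), among 192 of 10235 genes called higher in AML monocytes (1.88%), with 99 called lower (0.967%). Top2a, Ccnb2, Birc5, Stmn1, Tubb5 and Ube2c were called higher there too. The difference between the effect in cDC2 and the effect in monocytes was -0.15 for Mki67 (unadjusted p = 0.778, edgeR interaction). In type 1 conventional dendritic cells Mki67 was high in both groups, at 199, 249 and 437 CPM in AML lung, against 199, 159 and 208 CPM in normal lung. That class had fewer than 20 cells in 3 libraries, so its effect was not tested.

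Promoters of the proliferation genes are shown because 6 of these genes were higher without overlap. Promoters of mitotic genes often hold the cell cycle genes homology region, whose core is TTTGAA, and the CCAAT box. The core was searched as TTTGAA and, for the other strand, as TTCAAA. The box was searched as CCAAT and, for the other strand, as ATTGG. The window was 300 bases of the RefSeq promoters of GRCm38.p6, 250 before and 50 after the start of the gene. Matches of different motifs may overlap by a letter or more, as the forward and reverse box do once in Ube2c. Of the 10 tested genes 9 had a promoter there, and 5 of the 9 held both motifs, Ube2c, Mki67, Ccnb2, Top2a and Hmgb2, against 7.12% of all 27025 promoters (TTTGAA 18.1%, CCAAT 37.9%). Of the genes higher without overlap, Birc5 held neither motif and Tubb5 held only the CCAAT box. Shown are the promoters of the 3 genes with the largest log2 fold changes among the 5 that held both motifs. They are written 5′ to 3′ on the strand of the gene, with motif matches in capitals. A match is a description of letters, not of binding. These promoters lie at chr2:164769679-164769978 (plus strand), chr7:135716330-135716629 (minus strand) and chr9:70421505-70421804 (minus strand).
Ube2c: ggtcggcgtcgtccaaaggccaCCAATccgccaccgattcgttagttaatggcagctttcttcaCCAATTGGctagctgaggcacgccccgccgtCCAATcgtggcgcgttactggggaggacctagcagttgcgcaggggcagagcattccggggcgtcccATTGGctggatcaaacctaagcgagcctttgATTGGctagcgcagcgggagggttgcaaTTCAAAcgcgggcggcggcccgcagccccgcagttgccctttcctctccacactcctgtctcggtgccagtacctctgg
Mki67: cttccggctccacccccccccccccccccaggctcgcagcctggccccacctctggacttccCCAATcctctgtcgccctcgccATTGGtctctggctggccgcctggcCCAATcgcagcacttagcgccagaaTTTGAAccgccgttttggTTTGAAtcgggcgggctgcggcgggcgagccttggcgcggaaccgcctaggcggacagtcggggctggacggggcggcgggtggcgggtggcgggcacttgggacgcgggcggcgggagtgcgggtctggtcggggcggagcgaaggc
Ccnb2: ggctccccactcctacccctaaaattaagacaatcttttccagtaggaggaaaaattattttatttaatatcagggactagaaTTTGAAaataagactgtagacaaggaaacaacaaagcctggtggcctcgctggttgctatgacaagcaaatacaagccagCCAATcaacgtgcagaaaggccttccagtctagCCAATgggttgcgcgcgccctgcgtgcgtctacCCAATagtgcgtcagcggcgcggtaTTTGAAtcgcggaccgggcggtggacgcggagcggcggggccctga

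Genes that cDC2 share with monocytes were read next. Of 15 tested genes of a list of inflammatory cDC2 and monocyte-shared genes, 5 lay lower in AML lung without overlap (7.34% of all genes did) and none higher, at a median log2 fold change of -0.48. Without normal lung replicate 3 the count was 9, against 14.38% of all genes. In members without monocyte marker UMIs 1 of the 15 lay lower, against 9.135% of all genes, at a median of -0.01 over the 10 that could be fitted. The 5 were Lyz2, Ccr2, Ms4a4c, Ms4a6c and the Fc receptor Fcgr3. Of 7 tested classical monocyte markers 3 lay lower, Ccr2, F13a1 and Fn1, at a median of -1.03. The whole list of 8 classical monocyte markers summed to 881, 1221 and 915 CPM in AML members and 3547, 2210 and 1508 CPM in normal members, with no marker at 0 in any library. The 9 interstitial macrophage markers summed to 303, 193 and 352 CPM in AML members and 1324, 773 and 259 CPM in normal members, with Stab1 at 0 in every library. The part of such cells in the results was not tested.

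Lyz2, at chr10:117277331-117282321 of GRCm38 (minus strand), stood at 2924, 2428 and 1726 CPM in the AML libraries and 8978, 8114 and 4078 CPM in the normal libraries. The groups did not overlap, and replicate 3 was the lowest of each. Lyz2 and Lyz1 are near-identical copies, so the split of their counts is uncertain. The log2 fold change of Lyz2 was -1.57 (SE 0.28, edgeR adjusted p = 0.209, DESeq2 adjusted p = 0.000229). F13a1 (chr13:36867178-37050244 of GRCm38, minus strand), the catalytic chain of coagulation factor XIII and a marker of classical monocytes, stood at 141, 115 and 59.4 CPM in AML lung, against 1045, 488 and 375 CPM in normal lung (log2 fold change -2.57, SE 0.41, edgeR adjusted p = 0.183, DESeq2 adjusted p = 7.17e-08). Ccr2, the chemokine receptor that brings monocytes and their kin out of the marrow, stood at 375, 345 and 255 CPM in the AML libraries and 787, 659 and 563 CPM in the normal libraries (log2 fold change -1.03, SE 0.20, edgeR adjusted p = 0.209). In AML lung replicate 3, Lyz2 and F13a1 lay below the level in B cells of that library, 2177 and 90.7 CPM, so their level there is read as background. Without that library the log2 fold changes were -1.40 and -2.29.

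Further genes among the DESeq2 calls lay lower in AML lung without overlap and are named here after their values were seen. Plcb1, a phospholipase C that acts downstream of G protein-coupled receptors, stood at 145.5, 178.5 and 130.2 CPM in AML lung, against 1018, 514 and 272 CPM in normal lung (log2 fold change -1.95, SE 0.40). Gas7, a protein of the actin cytoskeleton, was the most even, at 127, 113 and 113 CPM in the AML libraries and 320.3, 359 and 271 CPM in the normal libraries (log2 fold change -1.42, SE 0.20, edgeR adjusted p = 0.0914). Thbs1, the matrix protein thrombospondin, had a log2 fold change of -2.46, the cAMP phosphodiesterase Pde7b of -1.76 and the orphan receptor Gpr141 of -1.31. Xylt1, which starts the sugar chains of proteoglycans, Grk5, a receptor kinase, and Stxbp6, a regulator of vesicle fusion, had -1.11, -1.29 and -1.02. In AML lung replicate 3, Plcb1 also lay under the B cells of that library, at 294.7 CPM. Thbs1 (15.3 against 74.0 CPM in B cells) and Grk5 (254.7 against 338 CPM in B cells) did so too. These levels are read as background there. Without that library Plcb1 stood at -1.86, Thbs1 at -2.22 and Grk5 at -1.46. Xylt1 lay under B cells, at 638 to 925 CPM, in 5 of 6 libraries. Type 1 conventional dendritic cells held 107 to 419 CPM of it and mature dendritic cells 36.3 to 273 CPM. The B cell level of Xylt1 is therefore not taken as background. In members without a UMI of the monocyte genes Ly6c2, Fcgr1, Ace, Treml4 and Cd300e, a setting that has too few cells in normal lung replicate 1 to use it, Lyz2 stood at -0.62, Gas7 at -1.75 and Plcb1 at 0.28.

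**Figure D4:**
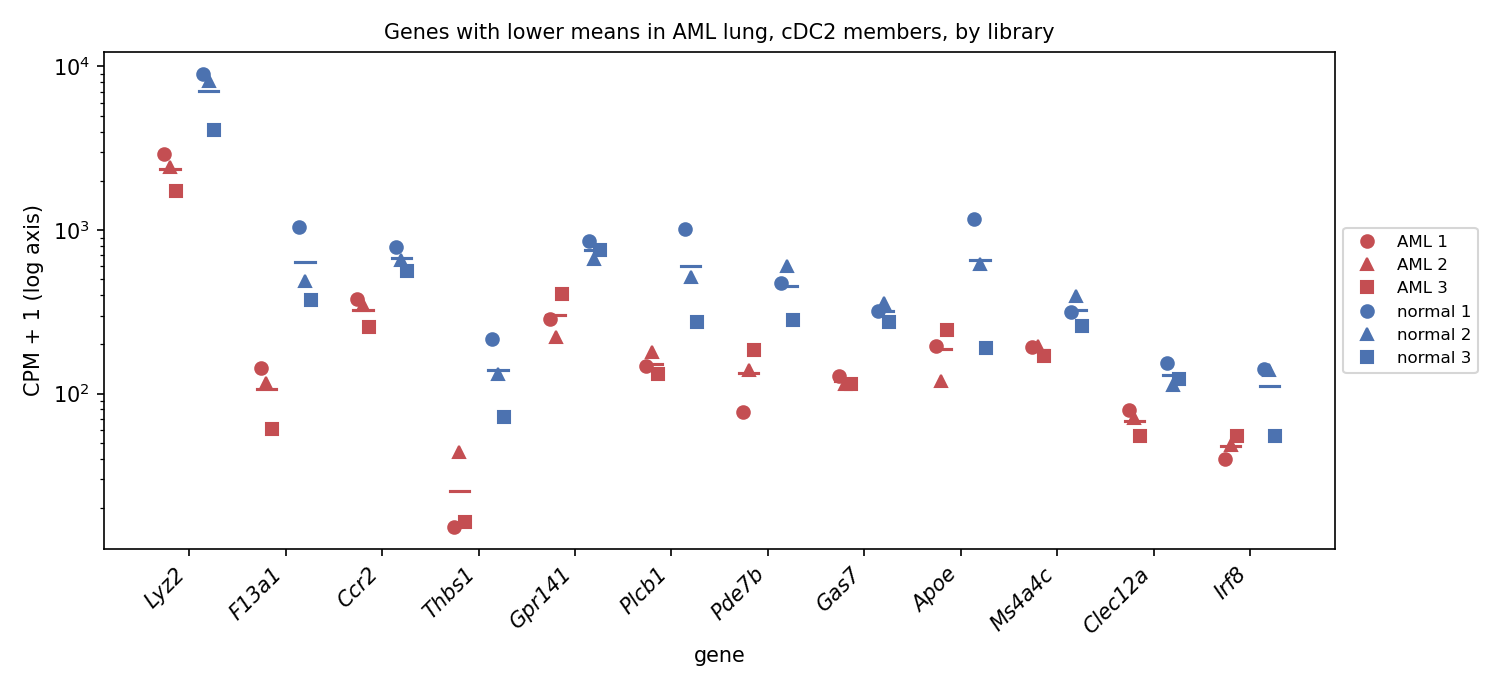
CPM + 1 on a log axis of 12 genes with lower means in AML lung, in cDC2 members by library (red AML lung, blue normal lung; horizontal lines are group means). Apoe overlaps between the groups and Irf8 nearly does, and normal lung replicate 3 is the normal library nearest to AML lung for F13a1, Plcb1 and Thbs1.

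On both sides of the Mgl2 split, F13a1 was lower in AML lung. Among members without Mgl2, F13a1 stood at 292.5, 213 and 130 CPM in AML lung, against 1205, 590 and 795 CPM in normal lung. Among those with Mgl2 it stood at 7.72, 4.37 and 12.7 CPM in the AML libraries and 293, 405 and 33.2 CPM in the normal libraries. Neither side overlapped. The AML levels with Mgl2 lay under B cells of the same libraries, at 9.18, 8.95 and 90.7 CPM, and are read as background. The level with Mgl2 in normal lung replicate 1 rests on 3 members. Plcb1 and Apoe overlapped among members with Mgl2, at 7.72 to 44.6 and 21.9 to 168.9 CPM in AML lung, against 0 to 388 and 0 to 375 CPM in normal lung. In members without Mgl2, an alternative added after seeing the data, edgeR called 18 of 4168 genes (0.432%), 9 higher and 9 lower. They included Lyz2 at -1.18, F13a1 at -2.01, Gas7 at -1.64, Plcb1 at -1.48, Gpr141 at -1.36, Cd7 at 1.98 and Ifitm1 at 5.70 on the log2 scale. In members with Mgl2, which leaves 5 libraries, edgeR called 0 of 4581 genes, with 242 at an unadjusted p under 0.05.

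Among genes with higher levels in AML lung, Ifitm1, an interferon-induced membrane protein, had the largest log2 fold change of those called by DESeq2. It lies at chr7:140967221-140969825 of GRCm38 (plus strand) and is named after its value was seen. It stood at 34.8, 121 and 90.0 CPM in AML lung, against 2.71, 2.38 and 4.88 CPM in normal lung (log2 fold change 4.39, SE 0.60, edgeR adjusted p = 0.0914, DESeq2 adjusted p = 2.49e-05). B cells stood at 11.6, 21.1 and 109.8 CPM in the AML libraries and 2.38, 5.27 and 9.38 CPM in the normal libraries. AML lung replicate 3 therefore lay under its B cell level, and the value without it was 4.30. Htr7, a serotonin receptor, stood at 55.3, 125 and 51.7 CPM in AML lung, against 0, 11.9 and 10.99 CPM in normal lung (log2 fold change 3.15, SE 0.60). Batf, an AP-1 partner of Irf4 in lymphocytes and dendritic cells, stood at 61.5, 189 and 74.7 CPM in the AML libraries and 27.1, 19.0 and 29.3 CPM in the normal libraries (log2 fold change 2.07, SE 0.45). Tgm2, a protein-crosslinking transglutaminase, had a log2 fold change of 1.49, and B cells of AML lung replicate 3 were at 191 CPM, above the 184 CPM of its members.

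Costimulation and checkpoint genes were mixed. Of 14 tested, 3 lay higher in AML lung without overlap and 1 lay lower, against 8.02% and 7.34% of all genes here and in the lists that follow, and the median log2 fold change was -0.05. Tnfsf9, the 4-1BB ligand that costimulates T cells, stood at 141, 69.8 and 53.6 CPM in AML lung, against 10.9, 9.52 and 30.5 CPM in normal lung (log2 fold change 2.19, SE 0.50, edgeR adjusted p = 0.222, DESeq2 adjusted p = 0.0133). Cd274, which encodes PD-L1, stood at 30.7, 39.0 and 86.2 CPM in the AML libraries and 8.14, 9.52 and 14.7 CPM in the normal libraries (log2 fold change 2.16, SE 0.49, edgeR adjusted p = 0.222). B cells had more Cd274 than the members in every library, at 112 to 153 CPM in AML lung, against 82.9 to 90.6 CPM in normal lung, and the part of their free RNA was not tested. Icosl, the ligand of ICOS, was the third, at a log2 fold change of 0.48. Cd48, a ligand of the NK receptor 2B4, was the lower gene. Cd80, Cd86, Cd40 and Cd83 overlapped, and normal lung replicate 1 was the lowest library for Cd86 and Cd83, at 277 and 274 CPM. Icam1, the adhesion partner of LFA-1, had a log2 fold change of 0.82 with overlap.

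Of 11 tested MHC class II genes outside the rule, 9 had a log2 fold change above 0, at a median of 0.23, and 1 lay higher and 1 lower without overlap, a share close to that of all genes. Ifi30, a lysosomal thiol reductase that unfolds antigen, lay higher at 674, 969 and 818 CPM in the AML libraries and 450.5, 523 and 534 CPM in the normal libraries (log2 fold change 0.71, SE 0.19, edgeR adjusted p = 0.320). Ctss, the protease that trims the invariant chain, lay lower at 1147, 1172 and 1092 CPM in AML lung, against 1414, 1546 and 1293 CPM in normal lung. H2-Eb1 stood at 4983, 5083 and 3901 CPM in the AML libraries and 2082, 4332 and 5397 CPM in the normal libraries, again with normal lung replicate 1 low. H2-Oa, a brake on peptide loading, had a log2 fold change of 0.82 with overlap. For MHC class I and the immunoproteasome, 2 of 17 lay higher and 2 lower. H2-Q7 (1.36) shares much sequence with other class I genes, so its counts are uncertain. B cells held more H2-Q7 than the members in every library, at 125 to 168 CPM in AML lung, against 81.0 to 151 CPM in normal lung. Nlrc5, the class I transactivator, stood at -0.68 with overlap.

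The list of dendritic cell identity genes had 3 of 24 genes higher and 3 lower without overlap, at a median of 0.02. Cd7, an immunoglobulin-family receptor, stood at 69.7, 103 and 63.2 CPM in AML lung, against 46.1, 21.4 and 14.7 CPM in normal lung (log2 fold change 1.63, SE 0.40, edgeR adjusted p = 0.281). Irf8 stood at 38.9, 47.2 and 53.6 CPM in the AML libraries and 141, 138 and 53.7 CPM in the normal libraries, so normal lung replicate 3 lay beside the AML libraries. Csf1r and Csf2ra, receptors for the macrophage and granulocyte-macrophage growth factors, lay lower, at log2 fold changes of -0.52 and -0.44. Zbtb46 (0.90), Irf4 (-0.42), Itgax (0.40) and Sirpa (-0.33) overlapped. Ltb, a lymphotoxin subunit, stood at 1.74 with overlap.

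For the NF-kB subunits and their feedback genes, 14 of 16 had a log2 fold change above 0, against 50.7% of all genes, and 3 lay higher without overlap, against 8.02%, at a median of 0.35. In members without monocyte marker UMIs the median was 0.07, and without normal lung replicate 1 it was 0.23 with 11 of 16 above 0. Leaving out normal lung replicate 2 gave 9 of 16 without overlap (11.8% of all genes) and leaving out AML lung replicate 2 gave 8 of 16 (11.7%). The 3 genes were Bcl3, an atypical IkB protein (1.23, SE 0.28, edgeR adjusted p = 0.222), Traf1, an adaptor of TNF receptors (0.80), and Relb, the alternative subunit (0.73). Bcl3 stood at 84.0, 119 and 111 CPM in AML lung, against 62.4, 40.4 and 35.4 CPM in normal lung. Relb was higher in B cells, at 121 to 163 CPM, than in members of every library except AML lung replicate 2. Socs3, an inhibitor of cytokine signalling, stood at 275, 207 and 226 CPM in the AML libraries and 70.6, 149.9 and 151 CPM in the normal libraries (0.90, SE 0.29). It and Cd274 were the 2 of 6 tested genes of alternative activation and immunosuppression that lay higher.

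Interferon-stimulated genes had mostly negative fold changes. Of 24 tested type I genes, 2 had a log2 fold change above 0 and 2 lay lower without overlap, close to the 7.34% of all genes, at a median of -0.48. Ifi204, a DNA-binding protein of the interferon response, stood at 100.4, 103 and 80.4 CPM in AML lung, against 290.4, 321 and 137 CPM in normal lung (-1.37, SE 0.31, edgeR adjusted p = 0.222, DESeq2 adjusted p = 0.0254), with AML lung replicate 3 under its B cells at 94.9 CPM. Slfn5 stood at -0.76, and Ifitm3 at -0.53 with overlap. Without normal lung replicate 3 there were 11 lower genes, against 14.38% of all genes, and without normal lung replicate 2 the list's median was -0.11. In members without monocyte marker UMIs the median was 0.26, over only the 12 genes that could be fitted. That setting leaves out normal lung replicate 1. Of 7 interferon gamma genes, Irf1, a transcription factor, lay higher (0.85), Gbp8, a guanylate-binding protein, lay lower, and Irgm1, a GTPase of the same response, stood at -1.11 with overlap.

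For pattern recognition, Tlr7, the receptor of single-stranded RNA, lay lower at 16.4, 12.3 and 17.2 CPM in the AML libraries and 54.3, 49.96 and 37.9 CPM in the normal libraries (-1.58, SE 0.34, edgeR adjusted p = 0.209), as 1 of 12 genes. The AML values lay under the 31.6 to 57.9 CPM of AML B cells. Tlr2 stood at -0.62 with overlap. Of 11 C-type lectins outside the rule, the inhibitory receptors Clec12a (-0.92) and Clec4a1 lay lower. Of 17 cytokine genes, Il15, which sustains NK and memory T cells, Tnfsf13, which encodes the B cell factor APRIL, and the chemokine Ccl9 lay lower, at -1.35, -1.27 and -0.58, and Il1b stood at 0.93 with overlap. Among trafficking genes, Ccr2, Cd44, a hyaluronan receptor, and Cxcr4, the receptor of marrow-derived Cxcl12, lay lower without overlap, with Cxcr4 at 38.9, 8.21 and 97.7 CPM in AML lung, against 166, 109 and 198 CPM in normal lung (-1.70, SE 0.56). B cells had more Cxcr4 than the members in every library, at 50.6 to 228 CPM in AML lung, against 318 to 385 CPM in normal lung. The part of their free RNA was not tested. The integrin chain Itga4 stood at -0.60 with overlap.

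For metabolism, 25 of 30 genes of oxidative phosphorylation had a log2 fold change above 0, against 50.7% of all genes, and 7 lay higher without overlap, against 8.02%, at a median of 0.16. Atp5g1, a subunit of the ATP synthase, stood at 172, 181 and 147.5 CPM in the AML libraries and 106, 112 and 116 CPM in the normal libraries (0.58, SE 0.20), and Cox6b1 of cytochrome c oxidase at 0.45. In members with Mgl2 the list's median was -0.01. In members with 3 or 4 markers 1 of the 30 genes lay higher without overlap, against 5.75% of all genes. Gapdh, the glycolytic enzyme, stood at 719, 657 and 695 CPM in AML lung, against 372, 402 and 410.3 CPM in normal lung (0.81, SE 0.16, edgeR adjusted p = 0.209). Ldha was the other of 14 glycolysis genes that lay higher, Hk2 (-0.69), a hexokinase, lay lower, and the glucose transporter Slc2a1 stood at -1.24 with overlap. Among cholesterol and lipid genes, Idi1 of the sterol pathway (-1.60), Insig1, a regulator of that pathway, and the scavenger receptor Msr1 (-1.22) lay lower without overlap. Apoe, a lipid carrier, stood at -1.78 with overlap.

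**Figure D5:**
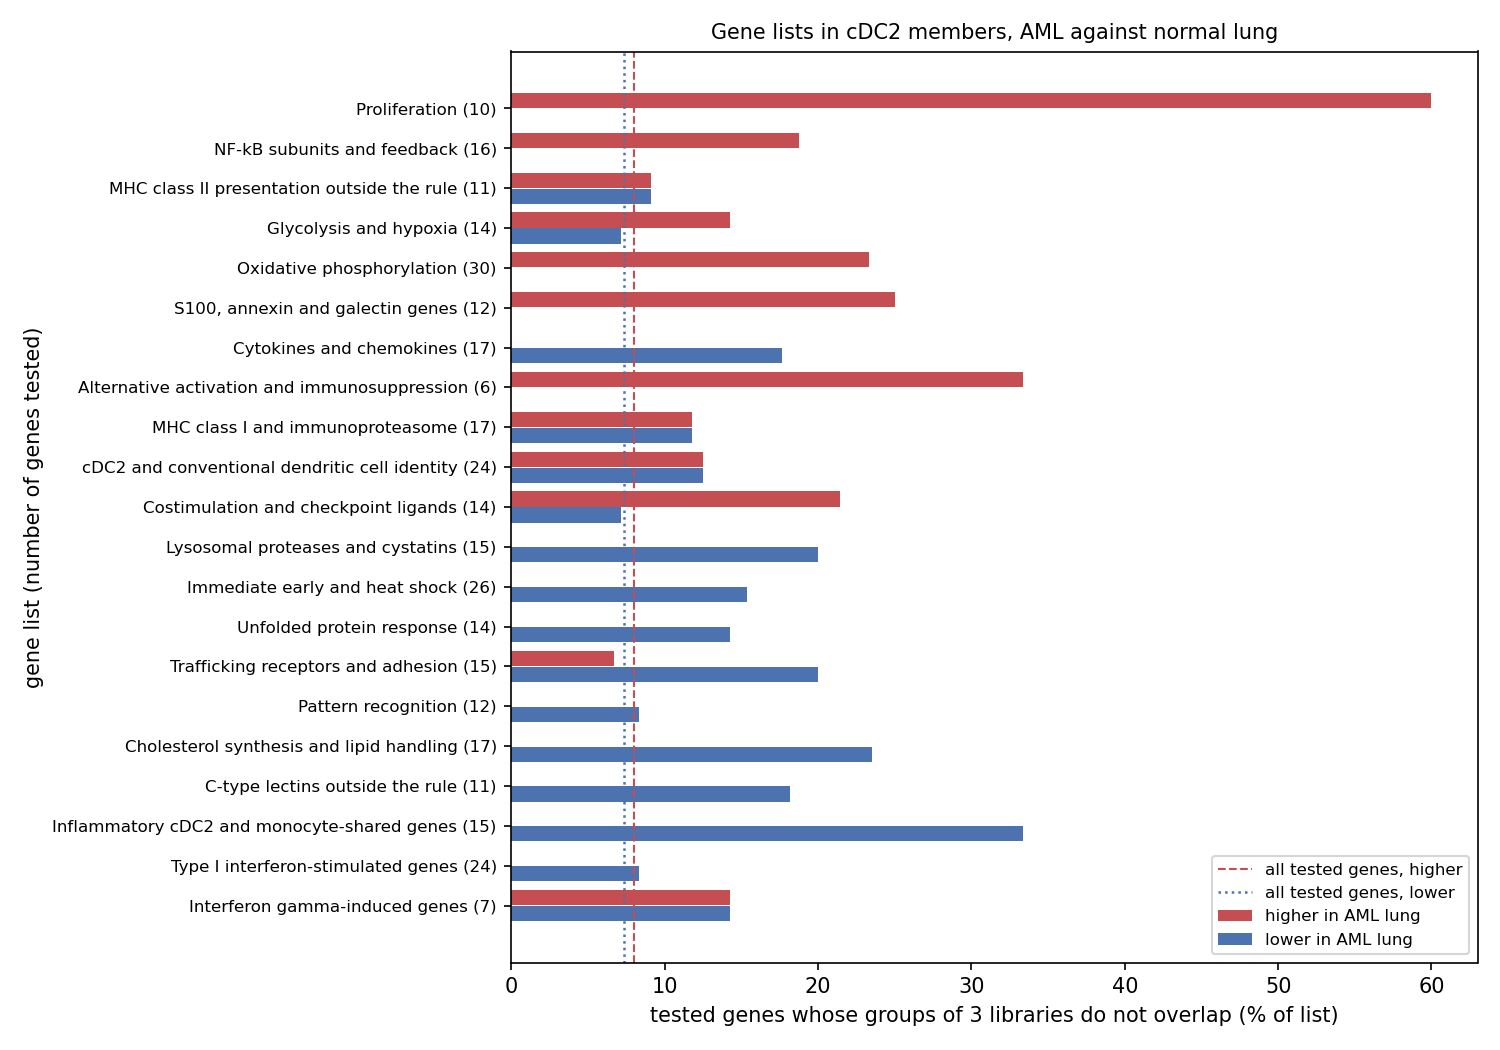
For each of 21 gene lists, the percentage of tested genes whose 3 AML libraries all lie above (red) or below (blue) the 3 normal libraries, with the same percentages over all 6196 tested genes as vertical lines at 8.02% and 7.34%. The proliferation list, with 6 of 10 genes higher, has the longest bar.

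Among S100, annexin and galectin genes 3 of 12 lay higher. Lgals1, galectin-1, stood at 369, 400.2 and 354 CPM in the AML libraries and 182, 193 and 230 CPM in the normal libraries (0.89, SE 0.19, edgeR adjusted p = 0.209), and S100a11 (0.68) and Anxa2 (0.44) were the others. S100a9, a neutrophil gene, stood at 4.10, 51.3 and 919 CPM in AML lung, against 13.6, 9.52 and 20.8 CPM in normal lung. It lay below the B cells of the same library in all 6 libraries (130.0 to 2477 CPM in AML lung, 86.2 to 446 CPM in normal lung), and is read as background. The 8 neutrophil markers summed to 912, 552 and 2237 CPM in AML members and 244, 295 and 595 CPM in normal members, with Ly6g at 0 in every library. Of 26 immediate early and heat shock genes 4 lay lower, Hspa1b (-2.01), Zfp36 (-0.62), Klf6 (-0.69) and Nr4a1, genes that also respond to tissue digestion. Hspa1a (-1.44, with overlap) and Hspa1b are near-identical copies, so their split is uncertain. Both turned to the positive side, 1.86 and 1.34, in members without monocyte marker UMIs. Of 14 unfolded protein response genes, Atf4 (-0.59), a stress transcription factor, and Pdia4, a chaperone, lay lower, and of 15 lysosomal genes Ctss, Ctsz and Lyz2, with Ctsz at a log2 fold change of -0.05.

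Whether leukaemic lung differed in cDC2 in another way than in classical monocytes was tested by the interaction of class and group in 1 model with each library as a block. Of 9948 genes none passed an adjusted p of 0.05 by edgeR (0.0% called). The unadjusted p was under 0.05 for 493 genes (4.96%), while 3 were called by DESeq2. Simulated counts, over 6196 genes, let this test find 13% of true 2-fold and 76% of true 4-fold differences, with 1 false call. These counts had the same dispersion for every gene too, so the shares may not hold for the real counts. Genes that chose the monocytes, Ly6c2, Ccr2 and Lyz2, are left out of this account. By p, the 6 genes on the higher side were Alcam, Ube2e2, Pik3r5, Wipf1, Cd83 and Lyz1, and the 6 on the lower side were Plxdc2, Plcb1, Cd24a, Cxcl9, Cul2 and Wfdc17. Alcam, the adhesion ligand of CD6, stood at 0.18 in cDC2 and -0.92 in monocytes, a difference of 1.12 (SE 0.20, edgeR adjusted p = 0.304). Cd83, a maturation marker, stood at 0.30 in cDC2 and -0.87 in monocytes, a difference of 1.32 (SE 0.27, edgeR adjusted p = 0.409). Plcb1 differed by -1.48 (SE 0.25, edgeR adjusted p = 0.272), with -1.95 in cDC2 and -0.37 in monocytes, and Plxdc2, a plexin-domain protein, by -2.45 (SE 0.41, edgeR adjusted p = 0.272). Lyz1 and Cxcl9 did not pass the count filter in the members alone, and each rests on 1 library. AML lung replicate 2 held 100 of the Lyz1 UMIs of the members, with at most 2 in any other library, and normal lung replicate 2 held 47 of the Cxcl9 UMIs, with at most 7 in any other. The same interaction with type 1 conventional dendritic cells could not be fitted, because only AML lung replicate 3 and normal lung replicates 2 and 3 held 20 or more of them.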

How the data were processed

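CD45-enriched lung cells of 3 AML-infiltrated and 3 normal lungs were profiled with the 10x Genomics 3' kit v3.1, per the labels' protocols. The deposited values are UMI counts per gene and barcode for 32285 features, not normalized, made with Cell Ranger 7.0.0 on mm10, per the submitters' processing notes; how its barcodes were called as cells is not stated. Barcodes with at least 500 UMIs, 200 genes and under 10% mitochondrial UMIs were kept. Groups come from the labels. The members, the lists and the tests were chosen with earlier results of these data known.

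Counts were summed per library over the members and tested with edgeR 4.0.16 (R 4.3.3; TMM, filterByExpr, quasi-likelihood F test, Benjamini-Hochberg at 0.05); the standard error is the log2 fold change over the square root of F. Per-library CPM uses plain sums, while overlap of groups was judged on CPM with TMM-scaled library sizes. For shares, all 20 arrangements of the libraries gave an exact two-sided permutation test. Classical monocytes carried a UMI of Ly6c2 and of Ccr2 and 3 of Lyz2, with the exclusions of the member rule and at most 1 of its 4 markers. B cells carried 3 UMIs over Cd79a, Cd79b and Ms4a1 and 0 of Cd3e. The alternatives were DESeq2 1.42.0, each library left out, the replicate number as a block, RLE scaling, all genes without a count minimum, other member and cell filters, 1000 UMIs per cell and 20 members per library. A library with under 10 members was left out of an alternative. Scrublet ran in scanpy 1.11.5 on Python 3.11.15. No 2 libraries of a group agreed within sampling noise (chi-square per degree of freedom 2.84 to 5.07). The fits were tested on simulated counts.

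Named genes are every call (none), up to 4 genes of each pathway list by p, the rule genes as a description and 6 genes by p in each direction for the interaction. List genes named beyond these, and genes outside the lists, were chosen after their values were seen. Promoters are those of RefSeq on GRCm38.p6. Some genes of the lists are not reported here.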

Additional observations from a re-analysis of the deposited data

How the results depend on the processing

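The count of genes called by edgeR in cDC2, 0, stayed at 0 with RLE size factors, with members that carried Flt3 or 3 to 4 markers, without monocyte marker UMIs, without doublets, with the stricter cell filter, with equal numbers of members and in members with Mgl2. It was 23 with DESeq2, 275 without the low count filter, 1 at 1000 UMIs per cell (230 genes tested), 2 in members without Mki67 or Top2a UMIs and 18 in members without Mgl2; the last 2 settings and the members with Mgl2 were chosen after seeing the data. Leaving out each library gave 0 to 8 (1 without AML lung replicate 1, 3 without AML lung replicate 3, 8 without normal lung replicate 3). For the difference from classical monocytes, 0 in the same way became 76 without the low count filter and 3 with DESeq2, and 0 to 5 with each library left out (5 without AML lung replicate 3, 2 without normal lung replicate 1, 1 without normal lung replicate 3). The cause of these moves was not tested. A block on the replicate number gave 5 called genes in cDC2, but same-numbered libraries did not deviate together (correlations -0.0808, -0.0548 and -0.0400), so the numbers were not taken to pair libraries.

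The share of members was lower in AML lung in every setting run except as a share of cDC2, type 1 conventional and mature dendritic cells together. There the difference was 8.93 percentage points (exact permutation p = 0.3). Without nonclassical monocytes in the total the difference was -0.0226 (p = 0.9, exact permutation). With each library left out it lay between -0.316 and -0.0499. Of 1239 values of 70 named genes under alternatives, 5 reversed, all in members without monocyte marker UMIs, where normal lung replicate 1 is missing: Plcb1 0.28, Ms4a4c 0.25, Ifitm3 0.31, Hspa1b 1.34 and Hspa1a 1.86. Of the others 94 passed the threshold and 1140 did not. Of the 10 proliferation genes, 6 to 8 lay higher without overlap with each library left out, where 11.67% to 15.19% of all genes did (8.02% with all libraries). The count was 1 among members with Flt3, without monocyte marker UMIs or at 1000 UMIs, and 3 with equal numbers of members. It was 5 among members with 3 or 4 markers or without Mgl2, and 6 among members with Mgl2.

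The depth of 20 to 44 members in 4 libraries limits the precision, and a cDC1 comparison was not run for want of cells.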
